A study of Homo sapiens with 28 samples.

Results

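Transcripts and guides of 10 genes of bone morphogenetic protein (BMP) signalling are described here in U-2 OS cells, a human osteosarcoma line: the ligand BMP4, the pseudoreceptor BAMBI, the signal carrier SMAD9, the inhibitory SMADs SMAD6 and SMAD7, and the target genes ID1, ID2, ID3, ID4 and ATOH8. They are 10 of the 25807 gene symbols of the RNA count table and 10 of the 19050 genes of the guide count table, where they have 57 of 109367 guides. The 10 genes were listed by name, and the list was selected on how these transcripts differed between the conditioned media. Their RNA differences are therefore given as a description. The counts of members past the RNA threshold stand beside the share of all genes that passed, and support nothing. The choice used no guide value that is known, and the guide counts were tested. All 10 genes passed the filter on low RNA counts.

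The study held 2 experiments. In the RNA experiment, U-2 OS cells with wild-type p53 (p53 WT) were taken untreated at the start of the assay (T0) or after 8 h in medium conditioned by other U-2 OS cells. The donors of that medium were p53 WT or p53 knockout (p53 KO), and had been given DMSO or 31.6 µM etoposide, a topoisomerase II poison that causes DNA double-strand breaks. This gives 5 groups of 2 libraries, named below T0, WT-DMSO, KO-DMSO, WT-etoposide and KO-etoposide medium after the donors. The titles of 4 libraries name p53KO, which is read here as the genotype of the donors, since the genotype and treatment labels of the same libraries give p53 WT for the cells and p53 KO for the medium. In the CRISPR screen, p53 WT or p53 KO cells carrying a pool of guides were sampled at T0 and after 96 h in DMSO (called untreated in some labels) or 5 µM etoposide, which gives 6 groups of 3 libraries. The labels do not say whether the p53 KO line is 1 clone, how long the donors were treated, whether etoposide was still in the conditioned medium, or whether each library had a culture of its own. Without that, the errors and p-values given measure the spread between these libraries, which may be technical.

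BMP ligands bind serine/threonine kinase receptors, which phosphorylate SMAD1, SMAD5 and SMAD9; these join SMAD4 in the nucleus and switch on a small set of early target genes. ID1 to ID4, which encode helix-loop-helix proteins that lack a DNA-binding region and hold E proteins away from DNA, are the best known of them. SMAD6, SMAD7 and BAMBI are targets as well as brakes on the pathway, so their transcripts are commonly read as a record of pathway activity. In bone, BMP signals drive precursor cells towards osteoblasts.

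The windows before the transcription starts of 4 members are shown. SMAD6, ID1 and ATOH8 were low in medium from etoposide-treated donors, and BAMBI differed least of the members between the WT-etoposide and WT-DMSO media. The choice marks no separate group. All 10 members were lower with etoposide in the donors, and in the WT media ID1 (log2 fold change -0.47) differed less than most of them. The windows hold the 250 bases before the start, 5' to 3' on the strand of the gene, from RefSeq on GRCh38.p14. Capitals mark GTCTAGAC, GGCGCC and GGAGCC on either strand, which are spellings of SMAD-binding and GC-rich BMP response elements.
SMAD6, chr15:66701986-66702235 (+ strand): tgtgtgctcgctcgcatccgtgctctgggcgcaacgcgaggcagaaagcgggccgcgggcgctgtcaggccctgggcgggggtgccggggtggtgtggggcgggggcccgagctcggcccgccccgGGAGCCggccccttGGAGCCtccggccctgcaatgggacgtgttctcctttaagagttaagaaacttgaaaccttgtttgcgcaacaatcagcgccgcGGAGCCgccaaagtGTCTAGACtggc
ID1, chr20:31605039-31605288 (+ strand): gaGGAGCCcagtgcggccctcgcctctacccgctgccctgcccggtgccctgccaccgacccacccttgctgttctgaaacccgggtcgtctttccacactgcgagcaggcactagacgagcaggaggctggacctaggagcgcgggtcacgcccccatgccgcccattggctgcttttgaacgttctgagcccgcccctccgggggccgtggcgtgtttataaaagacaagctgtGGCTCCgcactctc
ATOH8, chr2:85753741-85753990 (+ strand): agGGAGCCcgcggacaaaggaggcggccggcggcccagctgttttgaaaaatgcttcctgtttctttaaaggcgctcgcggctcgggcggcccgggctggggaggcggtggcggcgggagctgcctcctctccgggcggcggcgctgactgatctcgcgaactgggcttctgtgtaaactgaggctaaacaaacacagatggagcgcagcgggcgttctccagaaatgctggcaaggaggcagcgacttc
BAMBI, chr10:28677271-28677520 (+ strand): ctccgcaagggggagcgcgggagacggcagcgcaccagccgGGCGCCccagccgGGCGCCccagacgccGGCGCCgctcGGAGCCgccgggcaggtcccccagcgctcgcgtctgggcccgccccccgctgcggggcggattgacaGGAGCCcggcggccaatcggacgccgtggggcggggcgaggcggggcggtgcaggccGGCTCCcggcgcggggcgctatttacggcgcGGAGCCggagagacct
All 10 members were matched by symbol, with 14 annotated starts, since SMAD7 and BMP4 have 3 each. Searched on both strands, GTCTAGAC lay 12 bases before the start of SMAD6 and in no other member window, and it was found in 0.182% of the 35116 windows of the same length. BAMBI held GGCGCC in 3 places, and the first start of BMP4 held it in 1; 16.4% of all windows hold it. GGAGCC was found at 9 of the 14 member starts, against 30.6% of all windows. Of 10 motifs searched, the other 7 were CAGAC (7 member starts, 38% of all windows), AGAC (12 starts, 77.5%), GGCGGC (7 starts, 29.2%), CACGTG (2 starts, 6.34%), CAGCTG (3 starts, 14%), CAGGTG (1 start, 17.5%) and TATAAA (3 starts, 10.7%). AGAC lies inside CAGAC and GTCTAGAC. The member windows ranged from 48% to 81.2% G and C, with a median of 58% over all windows. The motifs were chosen after the RNA values were seen, and a match describes the letters only.

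The RNA libraries held 16825669 to 20290764 counts and the screen libraries 30437296 to 48230735. Replicates A and B of the KO-DMSO medium differed most, with a chi-square per degree of freedom of 12.8 over genes, against 1.90 to 5.09 in the other RNA pairs and 2.75 to 6.49 in the screen. Of 9 mesenchymal and bone markers, levels are given for 7. The others, RUNX2 and ALPL, are given below by their fold changes only. Of the 7, 3 were high in all RNA libraries. They stood at 7034 to 10140 CPM (counts scaled to library size) for COL1A1, 1806 to 2227 for SPARC and 2014 to 2547 for VIM. The other 4 were low, with COL1A2 at 0.411 to 1.27 CPM, SPP1 at 1.87 to 6.23, and BGLAP and IBSP at most 0.309 and 0.0998. Of 9 markers of leukocytes, endothelium and epithelium, CD3E, PECAM1, CDH5 and KRT19 were at most 0.370 CPM and PTPRC and VWF at most 1.40 and 2.38, while CD68 stood at 10.7 to 21.3, CDH1 at 2.81 to 7.04 and EPCAM at 1.37 to 2.74 CPM. CDKN1A and MDM2, targets of p53 looked up after the data were seen, rose with etoposide in the donors in both media, by 2.01 ± 0.09 (SE) and 1.40 ± 0.08 on the log2 scale in the WT medium and by 2.35 ± 0.09 and 1.60 ± 0.08 in the KO medium. Their adjusted p-values by edgeR's quasi-likelihood test were at most 1.01e-10. Whether the cells had met etoposide itself was not tested.

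Per kilobase of transcript, the members spanned a wide range in the T0 cells. ID1 was the highest at 249 ± 2.2 RPKM (CPM per kilobase; mean ± SD, n = 2), followed by ID3 at 150 ± 12 and BMP4 at 48.9 ± 3.1. ID2 (13.8 ± 1.7), SMAD6 (10.6 ± 0.61), BAMBI (9.38 ± 0.008), SMAD7 (7.80 ± 0.11) and ID4 (5.16 ± 0.081) came next. SMAD9 stood at 2.70 ± 0.32 RPKM and ATOH8 at 0.464 ± 0.11. In that order each neighbour differed by more than the sum of their SDs. In the KO-etoposide medium ID1 (102 ± 6.8), ID3 (67.1 ± 8.1) and BMP4 (20.7 ± 4.3) were again the 3 highest, SMAD7 (7.32 ± 0.20) came next, and SMAD6 (1.48 ± 0.23) and SMAD9 (1.23 ± 0.41) could not be told apart by their spread.

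**Figure D1:**
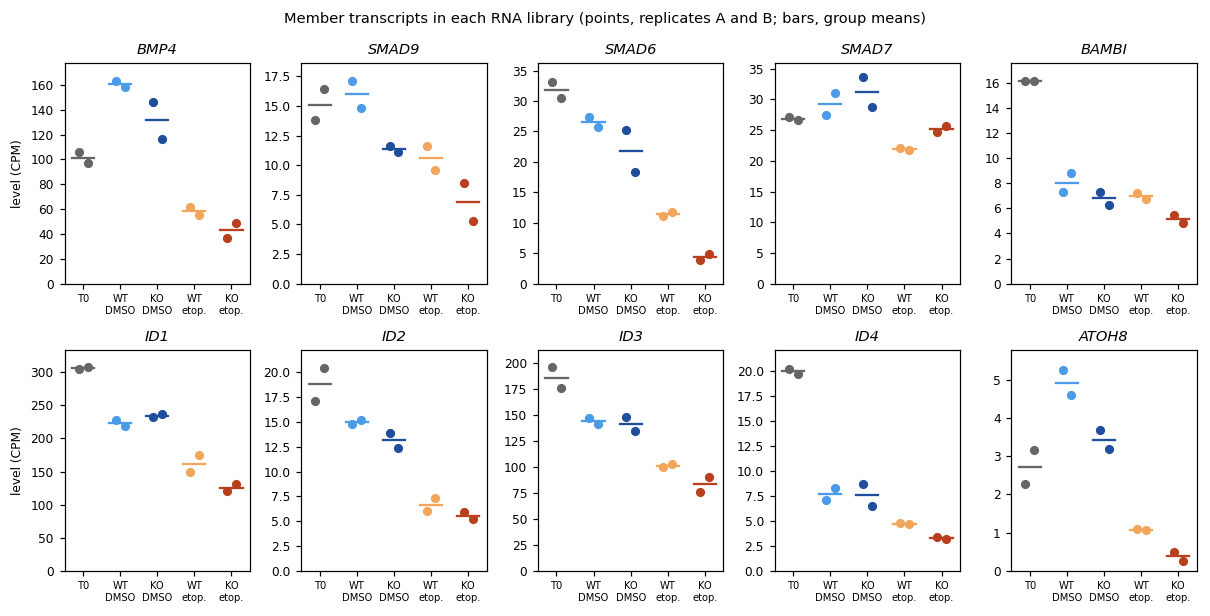
Level of each member transcript in CPM (vertical axis, from 0, a scale of its own for each gene) in the 5 RNA groups (horizontal axis). Points are the 2 libraries of a group and bars their mean; in 9 of the 10 genes the lowest library is one of the KO-etoposide medium, and in SMAD7 it is one of the WT-etoposide medium (21.7 CPM).

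BMP4, the secreted ligand and the member most abundant after ID1 and ID3, was lower with etoposide in the donors of either genotype. It stood at 106 and 96.7 CPM in T0 libraries A and B (the order of each pair below), 163 and 158 in the WT-DMSO, 146 and 117 in the KO-DMSO, 62.0 and 55.2 in the WT-etoposide and 36.5 and 49.2 in the KO-etoposide medium. The DMSO media were thus above T0 and the etoposide media below it, with no overlap. The log2 fold change of WT-etoposide against WT-DMSO medium was -1.45 ± 0.12 (SE), which is 2.74-fold lower, and that of KO-etoposide against KO-DMSO medium was -1.62 ± 0.12, which is 3.07-fold lower. Between the etoposide media the KO one was 1.37-fold lower, with a log2 fold change of -0.45 ± 0.12 that ranged from -0.26 without replicate A to -0.68 without replicate B of the KO-etoposide medium. In bulk RNA, fewer cells with a transcript and less of it per cell cannot be told apart, here and for each gene below.

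BAMBI is a receptor-like membrane protein without a kinase region that takes BMP and TGF-beta receptors out of action. Its transcript differed more between T0 and the media than with the donors' treatment. Its level was 16.2 CPM in both T0 libraries, 7.29 and 8.80 in the WT-DMSO and 7.31 and 6.28 in the KO-DMSO medium. In the etoposide media it was 7.19 and 6.73 (WT) and 5.49 and 4.84 CPM (KO). All 4 media were far below T0, while the WT-etoposide libraries lay just under the lower WT-DMSO one. The WT-DMSO medium differed from T0 by a log2 fold change of -1.01 ± 0.13, etoposide against DMSO in the donors by -0.21 ± 0.15 (WT) and -0.39 ± 0.16 (KO). T0 differs from the media groups in both the medium and the 8 h of culture, which cannot be told apart.

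SMAD9 (also called SMAD8), one of the 3 SMADs that BMP receptors phosphorylate, was moderately lower in both etoposide media, by values that depended on single libraries. It stood at 13.8 and 16.4 CPM in the T0 libraries, 17.1 and 14.8 in the WT-DMSO and 11.6 and 11.1 in the KO-DMSO medium. The WT-etoposide medium gave 11.6 and 9.56 and the KO-etoposide medium 8.49 and 5.25 CPM, so the KO-DMSO libraries fell within the range of the WT-etoposide ones. Etoposide against DMSO gave -0.59 ± 0.16 for WT and -0.72 ± 0.18 for KO medium. Without replicate A and without replicate B of the KO-etoposide medium the KO value was -1.12 and -0.42, and the comparison of KO with WT etoposide medium (-0.63 ± 0.18) was -1.02 and -0.32.

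SMAD6, which blocks BMP receptors and keeps SMAD1 from its partner SMAD4, had the largest fold changes with etoposide after ATOH8 in the KO comparison. Its libraries stood at 33.1 and 30.5 CPM at T0, 27.3 and 25.7 in WT-DMSO, 25.3 and 18.4 in KO-DMSO, 11.2 and 11.7 in WT-etoposide and 3.94 and 4.94 in KO-etoposide medium. The 5 groups did not overlap and were in that order, the KO-DMSO pair being the widest. SMAD6 was 2.32-fold lower in WT-etoposide than in WT-DMSO medium (log2 -1.21 ± 0.13) and 4.91-fold lower in KO-etoposide than in KO-DMSO medium (-2.30 ± 0.16). The KO-etoposide medium was 2.58-fold below the WT-etoposide medium (-1.37 ± 0.17), and 7.15-fold below T0 (-2.84 ± 0.15). The authors' deposited table, whose values follow the comparison of the 2 etoposide media across 13604 genes, lists -1.37 for SMAD6 and -1.50 for ATOH8.

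SMAD7, which shuts off TGF-beta and activin receptors as well as those for BMP, did not follow SMAD6. Its level was 27.1 and 26.6 CPM at T0, 27.5 and 31.1 in WT-DMSO, 33.6 and 28.8 in KO-DMSO, 22.1 and 21.7 in WT-etoposide and 24.7 and 25.7 in KO-etoposide medium. All libraries lay between 21.7 and 33.6 CPM, and the KO-etoposide libraries were above the WT-etoposide ones, the opposite order to the 9 other members. Etoposide against DMSO gave -0.42 ± 0.10 in WT and -0.31 ± 0.10 in KO medium, and KO against WT etoposide medium 0.20 ± 0.10.

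The 4 ID genes were lower in both etoposide media than in the matched DMSO media, and ID1 and ID3 kept nearly the same profile over the groups. ID1, the most abundant, read 304 and 308 CPM at T0, 228 and 219 in WT-DMSO, 233 and 236 in KO-DMSO, 149 and 175 in WT-etoposide and 119.9 and 132 in KO-etoposide medium. ID3 read 196 and 175, then 147 and 141, 148 and 134, 99.5 and 102, and 76.0 and 90.2 CPM in the same order of groups. In both genes T0 was highest, the DMSO media lay together in the middle and the KO-etoposide medium was lowest. Etoposide against DMSO gave -0.47 ± 0.08 for ID1 and -0.51 ± 0.09 for ID3 with WT donors, and -0.90 ± 0.08 and -0.76 ± 0.09 with KO donors.

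ID2 differed more than ID1 and ID3 with WT donors and ID4 differed most from T0. ID2 stood at 17.2 and 20.4 CPM at T0, 14.8 and 15.2 in WT-DMSO, 13.9 and 12.4 in KO-DMSO, 6.01 and 7.30 in WT-etoposide and 5.89 and 5.20 in KO-etoposide medium. The etoposide media lay below the DMSO media, and close to each other. The log2 fold change was -1.18 ± 0.14 with WT donors and -1.24 ± 0.15 with KO donors. ID4, which is less abundant, read 20.2 and 19.8 CPM at T0, 7.14 and 8.30 in WT-DMSO, 8.68 and 6.48 in KO-DMSO, 4.78 and 4.70 in WT-etoposide and 3.39 and 3.17 in KO-etoposide medium. The step from T0 to the WT-DMSO medium (-1.37 ± 0.14) was larger for ID4 than the further step to WT-etoposide medium (-0.70 ± 0.16). With KO donors that second step was -1.20 ± 0.17.

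ATOH8, a basic helix-loop-helix factor and a direct SMAD1/5 target in several cell types, had the fewest reads of the members, and the largest fold changes for etoposide against DMSO and between the etoposide media. Counts were 43 and 59 at T0, 103 and 91 in WT-DMSO, 70 and 62 in KO-DMSO, 22 and 19 in WT-etoposide and 10 and 5 in KO-etoposide medium, or 2.27, 3.17, 5.25, 4.60, 3.68, 3.19, 1.08, 1.08, 0.499 and 0.260 CPM. Like BMP4 it was above T0 in the DMSO media and below T0 in the etoposide media. It was 4.54-fold lower in WT-etoposide than in WT-DMSO medium (log2 -2.18 ± 0.26) and 8.85-fold lower in KO-etoposide than in KO-DMSO medium (-3.15 ± 0.33). The difference between the etoposide media, -1.48 ± 0.42, rests on these 4 small counts and was -2.03 without replicate A and -1.10 without replicate B of the KO-etoposide medium.

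**Figure D2:**
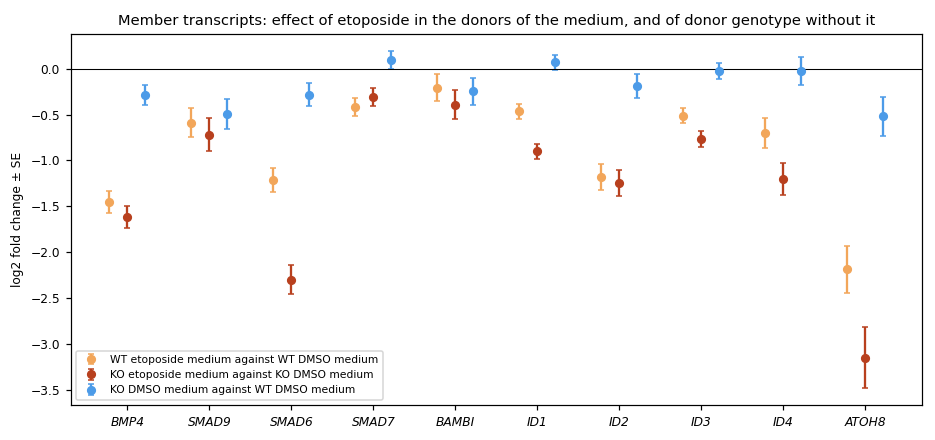
Log2 fold change of each member (vertical axis; error bars, SE) for etoposide against DMSO in WT donors, the same in KO donors, and KO against WT donors under DMSO. The etoposide values lie below 0 for all 10 genes, from -0.21 (BAMBI) to -2.18 (ATOH8) in the WT medium and from -0.31 (SMAD7) to -3.15 (ATOH8) in the KO medium, while the DMSO comparison stays between -0.52 and 0.09.

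Counted against an adjusted p of 0.05 (edgeR's quasi-likelihood test, adjusted over the 15391 genes tested), 9 of the 10 members were lower in WT-etoposide than in WT-DMSO medium, in a comparison in which 34.6% of all genes passed. BAMBI was the exception. For KO-etoposide against KO-DMSO medium the count was 9, with a background of 37.2% and BAMBI again the exception. The members' median log2 fold change was -0.64 and -1.05 in these comparisons, and that of all genes 0.01 and -0.01. All 10 members were without overlap between groups in each, as were 10500 and 9926 of the 15391 genes. Without replicate A of the WT-DMSO or replicate B of the WT-etoposide medium, SMAD9 did not pass, and without replicate B of the WT-DMSO medium SMAD7 did not, so the WT count was 8. In the KO comparison SMAD7 did not pass without replicate A of either medium, nor SMAD9 without replicate B of the KO-etoposide medium, and BAMBI passed without replicate B of the KO-DMSO medium. Because the genes were selected on these contrasts, the counts are given without further reading.

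Between the etoposide media, 6 members were lower with KO donors (ID1, ID3, SMAD6, SMAD9, ATOH8 and BMP4), where 14.1% of all genes passed, and SMAD7 alone had a positive value. The members' median was -0.44, against -0.01 over all genes. The count was 2 without replicate A of the WT-etoposide medium (ID1 and SMAD6), 3 without its replicate B (SMAD6, SMAD9 and BMP4), 2 without replicate A of the KO-etoposide medium (SMAD6 and SMAD9) and 4 without its replicate B (ID1, ID3, SMAD6 and BMP4). SMAD6 was in each of these sets and ATOH8 in none. The number of all genes called fell from 2166 to 1003, 864, 776 and 1055 with the same libraries left out in that order. Longer transcripts had slightly higher values in this comparison, with a Spearman correlation across genes of 0.15, and the part of that trend in the members' values was not tested.

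With DMSO in the donors, the members' values for KO against WT medium ran from -0.52 ± 0.21 (ATOH8) and -0.49 ± 0.16 (SMAD9) to 0.09 ± 0.10 (SMAD7). The first 2 were about as large as the ID1 value for etoposide with WT donors (-0.47 ± 0.08). The libraries of ID3, ID4, SMAD7 and BAMBI overlapped. Those of the other 6 members did not, nor did those of 7196 of the 15391 genes. None of the 10 passed between KO-DMSO and WT-DMSO medium by edgeR, where 1.56% of all genes did. Unadjusted, 4 members had a p under 0.05 by edgeR, and DESeq2 called 0. This result depended on single libraries: without replicate A of the KO-DMSO medium 3 members passed (SMAD6, SMAD9 and BMP4), and the count over all genes was 3047 in place of 240. That count was 11 without replicate B of the KO-DMSO medium, and 0 without replicate A or B of the WT-DMSO medium. Across genes the values of this comparison fell with transcript length (Spearman -0.26).

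The difference between the donors' genotypes in the etoposide effect was, among the members, largest for SMAD6, where the KO log2 fold change minus the WT one was -1.08 ± 0.21. The count of members past the threshold was 1 (SMAD6), beside 2.12% of all genes, and nothing is read from it. ID1 had the next largest value in relation to its error, -0.43 ± 0.11, and was called beside SMAD6 by DESeq2. ATOH8 (-0.96 ± 0.47) and ID4 (-0.50 ± 0.24) had larger values than ID1 but wider errors, and ID3 stood at -0.25 ± 0.12. BAMBI (-0.19 ± 0.22), ID2 (-0.07 ± 0.20), SMAD9 (-0.13 ± 0.24), BMP4 (-0.16 ± 0.16) and SMAD7 (0.11 ± 0.14) were within about 1 SE of 0. Across genes this difference rose with transcript length (Spearman 0.33), and its part in the members' values was not tested. The SMAD6 value kept its sign with each library left out, between -1.29 and -0.86. It did not pass without replicate A or B of the WT-DMSO, replicate B of the WT-etoposide or replicate A of the KO-etoposide medium, so 0 members were called then. ID1 passed together with SMAD6 without replicate A or B of the KO-DMSO or replicate A of the WT-etoposide medium. The number of all genes called, 326 with every library, moved with the same omissions. It was 46, 38, 36 and 30 without replicate A or B of the WT-DMSO, replicate B of the WT-etoposide and replicate A of the KO-etoposide medium, 1654 and 1082 without replicate A or B of the KO-DMSO medium, and 150 without replicate A of the WT-etoposide medium.

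Against T0 the members split into genes that dropped with any conditioned medium and genes that did not. In WT-DMSO medium 7 of the 10 passed, where 35.4% of all genes did: ID1 (-0.45 ± 0.08), ID2 (-0.32 ± 0.12), ID3 (-0.37 ± 0.08), ID4 (-1.37 ± 0.14) and BAMBI (-1.01 ± 0.13) were lower, and ATOH8 (0.86 ± 0.22) and BMP4 (0.66 ± 0.11) were higher. In KO-DMSO medium the count was 7 with a background of 36.8%, with SMAD6 (-0.54 ± 0.12) now among the lower genes and ATOH8 (0.34 ± 0.23) not passing. BMP4 was again higher (0.37 ± 0.11). BMP4 and the 4 ID genes thus had opposite signs in the DMSO media, whereas in the etoposide media all 5 were below T0. In WT-etoposide medium all 10 passed, all lower, where 41% of genes did, and in KO-etoposide medium 9 did, with a background of 46.6%. SMAD7 at -0.09 ± 0.10 was the exception, and SMAD6 (-2.84 ± 0.15), ATOH8 (-2.81 ± 0.35) and ID4 (-2.60 ± 0.16) had the lowest values. Some of these counts depended on single libraries. In WT-DMSO medium ID3 and ATOH8 did not pass without replicate A of T0 (count 5), ID2 and ATOH8 without replicate A of the WT-DMSO medium (count 5), and ID2 without replicate B of either (count 6). In KO-DMSO medium ID2 (-0.38) and BMP4 (0.31) did not pass without replicate B of T0, nor BMP4 (0.23) without replicate A of the KO-DMSO medium; SMAD6 there stood at -0.33 without replicate B of the KO-DMSO medium and passed. In WT-etoposide medium SMAD7 did not pass without any 1 of the 4 libraries, nor SMAD9 without replicate B of T0 or of the WT-etoposide medium. T0 cells differ from the others in both the medium and the 8 h of culture, which cannot be told apart, and the 4 comparisons share the T0 libraries.

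Across the 10 libraries ID1, ID2, ID3 and SMAD6 varied closely together, while other pairs of members ranged widely. Pearson correlations of log2 CPM were 0.98 for ID1 with ID3, 0.96 for ID1 with ID2, and 0.93 to 0.96 for SMAD6 with ID1, ID2 and ID3. ID4 went most closely with BAMBI (0.96), the other gene that dropped sharply from T0. ATOH8 went most closely with BMP4 (0.94), the other member that passed as higher than T0 in WT-DMSO medium. SMAD7 was also above T0 without overlap in the WT-DMSO (0.12 ± 0.10) and KO-DMSO medium (0.22 ± 0.10), but did not pass. Values were lower for BAMBI with BMP4 (0.42) and ATOH8 (0.51), and for ID4 with BMP4 (0.62) and ATOH8 (0.67). SMAD7 had values between 0.17 (BAMBI) and 0.76 (BMP4). These points share 5 group means and are given as a description. Among the 11063 genes that averaged 5 CPM or more over the libraries, the non-member genes most like the mean of ID1, ID2 and ID3 were B4GALNT4 (0.995), BOK, LIMS2 and TPM1 (each 0.989), ZNF354B (0.988) and ROGDI (0.987). B4GALNT4 encodes a glycosyltransferase, BOK a BCL2 family protein, LIMS2 a focal adhesion protein and TPM1 a tropomyosin. Measured the same way, SMAD6 stood at 0.955 (rank 109 of the 11063 genes), ID4 at 0.936 (rank 231) and SMAD7 at 0.590 (rank 2497). Most genes that ranked above SMAD6 were thus not members. The log2 fold changes of B4GALNT4 were -0.66 ± 0.12 for etoposide against DMSO with WT donors and -1.01 ± 0.13 with KO donors.

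The rest of the pathway held genes that differed in both directions. These lists were chosen with earlier results of these data known. Most genes named had the smallest p of their list by edgeR, so their values and p-values are descriptive. Over all 15391 genes tested, 2472 were higher and 2854 lower with WT donors (median 0.01) and 2897 higher and 2831 lower with KO donors (-0.01). Of 66 further genes on 7 lists that passed the filter, the ligands were 2 higher and 0 lower of 7 in WT-etoposide against WT-DMSO medium, by edgeR's quasi-likelihood test (median log2 fold change 0.20), and 3 higher and 0 lower in the KO comparison (0.30). BMP2, an osteogenic ligand that acts through the same receptors as BMP4, rose by 1.36 ± 0.18 on the log2 scale in the WT comparison (adjusted p = 9.93e-06) and by 1.57 ± 0.17 in the KO comparison (5.67e-07), while BMP4 was lower. BMP7 rose by 0.59 ± 0.10 in the WT comparison (adjusted p = 0.000125 by edgeR), and was also among the 3 ligands higher in the KO comparison. Here and below, a value given for 1 genotype of the donors does not mean that the other genotype differed. By edgeR's test of the difference between genotypes, 0 of 7 ligands, 0 of 10 antagonists and 0 of 12 other BMP targets passed. Of 10 receptors 1 did (RGMB). BMP6, at 0.89 ± 0.24 in the KO comparison (adjusted p = 0.00609), had an adjusted p of 0.0702 by edgeR without replicate A of the KO-DMSO medium.

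Receptors and co-receptors moved in both directions, with 2 of 10 higher and 3 lower with WT donors (median -0.07) and 3 higher and 3 lower with KO donors (0.04). RGMA, a BMP co-receptor anchored in the membrane, rose by 1.88 ± 0.11 and 1.79 ± 0.11. The type I receptor gene BMPR1A fell by 0.67 ± 0.09 and 0.56 ± 0.09 on the log2 scale, and the type II receptor gene BMPR2 fell by 0.64 ± 0.07 with WT donors. RGMB, a relative of RGMA, rose by 0.93 ± 0.10 with KO donors and by 0.35 ± 0.10 with WT donors. These edgeR adjusted p-values were at most 0.0127.

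The SMADs and their partners were 3 higher and 6 lower of 13 with WT donors (median -0.19) and 5 higher and 4 lower with KO donors (-0.04). RUNX2, the osteoblast transcription factor that works with SMADs, fell by 1.66 ± 0.13 and 1.94 ± 0.14 on the log2 scale. SMAD3, which carries TGF-beta rather than BMP signals, fell by 0.80 ± 0.07 and 0.76 ± 0.07, and the corepressor gene TGIF1 by 0.82 ± 0.11 and 0.99 ± 0.11. SMAD1 and SMAD4, picked out for their role after their values were seen, gave -0.65 ± 0.14 and -0.14 ± 0.09 with WT donors and -0.33 ± 0.14 and -0.01 ± 0.09 with KO donors, of which SMAD1 with WT donors passed (adjusted p = 0.00128 by edgeR). Extracellular antagonists were 1 higher and 2 lower of 10 with WT donors (median -0.19) and 2 higher and 3 lower with KO donors (-0.08). Among them FST (follistatin) rose by 0.53 ± 0.09 and 0.42 ± 0.09, BMPER fell by 1.21 ± 0.27 and 1.08 ± 0.29, and NOG (noggin) fell by 0.54 ± 0.10 with KO donors. The adjusted p-values of the rises and falls given here were at most 0.00586 by edgeR.

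Of the other genes known as BMP targets 5 of 12 were higher and 2 lower with WT donors (median 0.24), and 6 higher and 2 lower with KO donors (0.31). The netrin receptor gene UNC5B rose by 0.60 ± 0.09 and 0.63 ± 0.09, and the adaptor gene NEDD9 rose by 0.53 ± 0.10 with WT donors. TBX3, a T-box repressor, and ALPL, the bone alkaline phosphatase, rose by 1.06 ± 0.12 and 0.80 ± 0.10 with KO donors, whereas HES1 fell by 0.57 ± 0.09 with WT donors. The 3 E protein genes, whose products the ID proteins bind, all fell (medians -0.82 and -0.55): TCF4 by 1.55 ± 0.11 and 1.75 ± 0.12, TCF12 by 0.82 ± 0.09 and 0.49 ± 0.09 and TCF3 by 0.49 ± 0.08 and 0.55 ± 0.08. Of 11 TGF-beta response genes 5 were higher and 2 lower in each comparison (medians 0.02 and 0.12), among them CYR61 (0.61 ± 0.07 and 0.83 ± 0.07) and TGFB2 (-1.23 ± 0.11 and -1.94 ± 0.11). The adjusted p-values of these changes were at most 0.000635 by edgeR.

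With KO against WT etoposide medium, the genes given here passed with each library left out. RGMB (0.82 ± 0.10), TBX3 (1.04 ± 0.12), ALPL (0.82 ± 0.10) and TGFBR2 (0.85 ± 0.13) were higher and TGFB2 (-1.13 ± 0.11) was lower, with adjusted p-values of at most 0.00033 by edgeR.

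**Figure D3:**
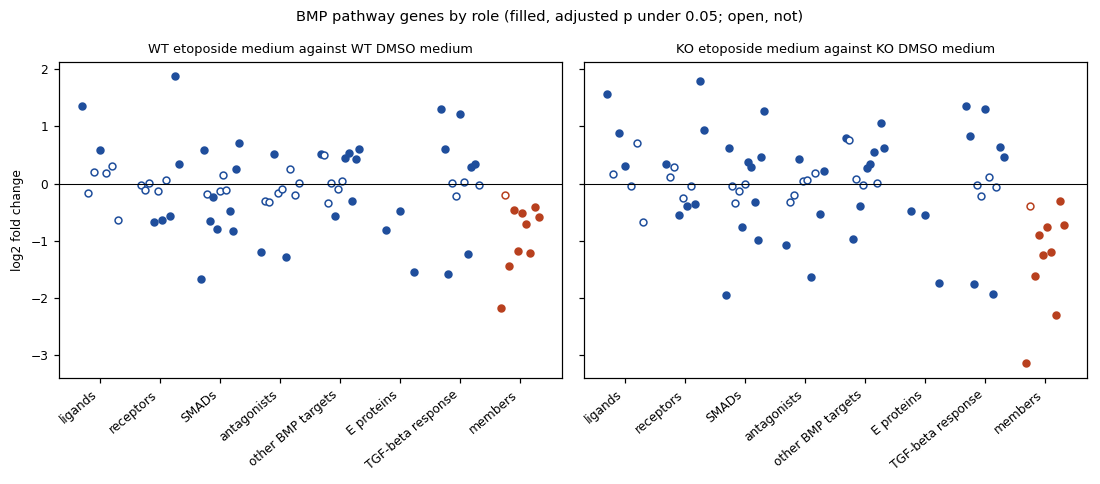
Log2 fold change of single genes (vertical axis) by role (horizontal axis) for etoposide against DMSO with WT donors (left) and KO donors (right); filled points passed an adjusted p of 0.05. All 10 members and the 3 E protein genes lie below 0 in both panels, and the other lists hold genes on either side, such as BMP2 at 1.36 and RUNX2 at -1.66 on the left.

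In the screen, where guide counts report how cells lacking a gene fared, the members' guides hardly moved. SMAD9, BMP4, BAMBI, SMAD7, ID1, ID2 and ID4 have 6 guides each and ID3, SMAD6 and ATOH8 have 5. Guides to 1 gene share their target, so counts were summed per gene and compared over libraries. Summed levels ran from 38.0 CPM (ATOH8, WT T0) to 95.3 CPM (SMAD7, KO DMSO) over single libraries, and no member guide had fewer than 59 counts in a library.

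SMAD9 was the 1 member of 10 called for growth of p53 WT cells in DMSO, in a comparison where 6.53% of all genes were called. Its guides summed to 78.1, 75.9 and 78.1 CPM in the T0 libraries and to 87.6, 83.2 and 85.9 CPM after 96 h. The groups did not overlap, and the 6 guides lay between -0.01 and 0.29, with 5 above 0. The log2 fold change was 0.15 ± 0.04 (95% interval 0.06 to 0.23, adjusted p = 0.0228 by edgeR). The call was lost without any 1 T0 library (adjusted p = 0.0525, 0.128 and 0.0563 without A, B and C) and without replicate A or C of the DMSO libraries (0.115 and 0.0554), all by edgeR. It was also lost with the 999 non-targeting guides setting the scale of each library (0.08 ± 0.04, adjusted p = 0.209 by edgeR) and with limma on the mean over guides (0.12 ± 0.05, adjusted p = 0.132). In p53 KO cells SMAD9 stood at -0.03 ± 0.04, from 75.4, 83.7 and 77.9 CPM at T0 to 79.1, 76.6 and 77.6 CPM. The difference between the genotypes was -0.17 ± 0.06 with an adjusted p of 0.424 by edgeR.

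BMP4 was the other member with an unadjusted p under 0.05 in that comparison, at 0.12 ± 0.05 (adjusted p = 0.145 by edgeR). Its guides summed to 50.4, 54.3 and 53.4 CPM at T0 and 58.9, 56.3 and 57.1 CPM after 96 h, without overlap. Of the 57 member guides 1 was called alone, a BMP4 guide at 0.39 ± 0.11 (adjusted p = 0.0404 by edgeR), where 1.54% of all guides were; another of its guides stood at 0.29 ± 0.12, and the remaining 4 between -0.04 and 0.08. In p53 KO cells BMP4 stood at 0.01 ± 0.05. None of the 10 members was called by edgeR for growth of p53 KO cells (background 3.51%), with 0 under an unadjusted p of 0.05 and 0 by DESeq2, and none of their guides was (background 0.609%). SMAD6 had all 5 guides lower there, at -0.08 ± 0.05 in sum (adjusted p = 0.482), and ATOH8 all 5 guides higher, at 0.07 ± 0.06 (adjusted p = 0.644).

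Etoposide changed no member's guides past the threshold in either genotype. In p53 WT cells 0 of 10 members passed by edgeR, where 2.2% of all genes did, with 1 under an unadjusted p of 0.05 and 0 by DESeq2; none of the guides passed (background 0.372%). That 1 was ID3, which went from 49.1, 53.9 and 53.7 CPM in DMSO to 49.7, 47.0 and 46.8 CPM in etoposide, with overlap between the groups (-0.13 ± 0.05, adjusted p = 0.261). In p53 KO cells 0 of 10 passed (background 4.23%), with 1 under an unadjusted p of 0.05, 0 by DESeq2 and none of the guides (background 0.841%). There it was ID2, which went from 65.4, 58.6 and 59.7 to 67.7, 65.4 and 65.8 CPM (0.12 ± 0.05, adjusted p = 0.172). SMAD6, the member with the largest RNA difference between the etoposide media after ATOH8, stood at 0.08 ± 0.05 (95% interval -0.03 to 0.18) in p53 WT and -0.0016 ± 0.05 (-0.11 to 0.10) in p53 KO cells. Over these 4 comparisons the outermost interval bounds of any member were -0.23 and 0.23. These bounds hold for summed counts with TMM scaling, and non-targeting scaling gave a lower SMAD9 value, as above. They leave out the spread between guides of a gene, which for BMP4 in growth of p53 KO cells ran from -0.28 to 0.47. Larger effects of losing a gene are therefore not excluded.

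The 2 tests of a difference between genotypes called no member. For the etoposide effect 0 of 10 passed by edgeR (background 0.0525%), with 1 under an unadjusted p of 0.05 (ID3, 0.15 ± 0.08, adjusted p = 0.483) and 0 by DESeq2, and for the growth effect 0 of 10 passed (background 0.00525%), with 1 under an unadjusted p of 0.05 (SMAD9, above) and 0 by DESeq2. None of the 57 guides passed in either, with backgrounds of 0.00274% and 0.000914%. Among the other genes of the lists, SMAD4 (-0.18 ± 0.05, adjusted p = 0.0185) and LDLRAD4 (0.16 ± 0.05, 0.0374) were called by edgeR for growth of p53 WT cells, NEDD9 (-0.16 ± 0.05, 0.0212) for growth of p53 KO cells and DAND5 (0.19 ± 0.06, 0.0382) for etoposide in p53 KO cells. SMAD4, a partner of SMAD9, had the opposite sign to SMAD9 in the growth of p53 WT cells, and the contrast between the 2 genes was not tested. These calls too depended on single libraries: SMAD4 did not pass without replicate B of WT T0 (-0.15, adjusted p = 0.161 by edgeR) or replicate A or B of WT DMSO, and LDLRAD4 did not without replicate A or B of WT T0 or any 1 WT DMSO library. NEDD9 did not pass without any 1 KO T0 library or replicate A or C of KO DMSO, and DAND5 did not without any 1 KO DMSO library or replicate B or C of KO etoposide. They depended on the processing as well: LDLRAD4 did not pass with non-targeting scaling (0.09 ± 0.05, adjusted p = 0.210 by edgeR) or NEDD9 with limma on the mean over guides (-0.14 ± 0.05, adjusted p = 0.122). DAND5 did not pass with limma (0.17 ± 0.07, adjusted p = 0.141) or with only the libraries compared in the fit (0.19 ± 0.06, adjusted p = 0.0864 by edgeR).

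**Figure D4:**
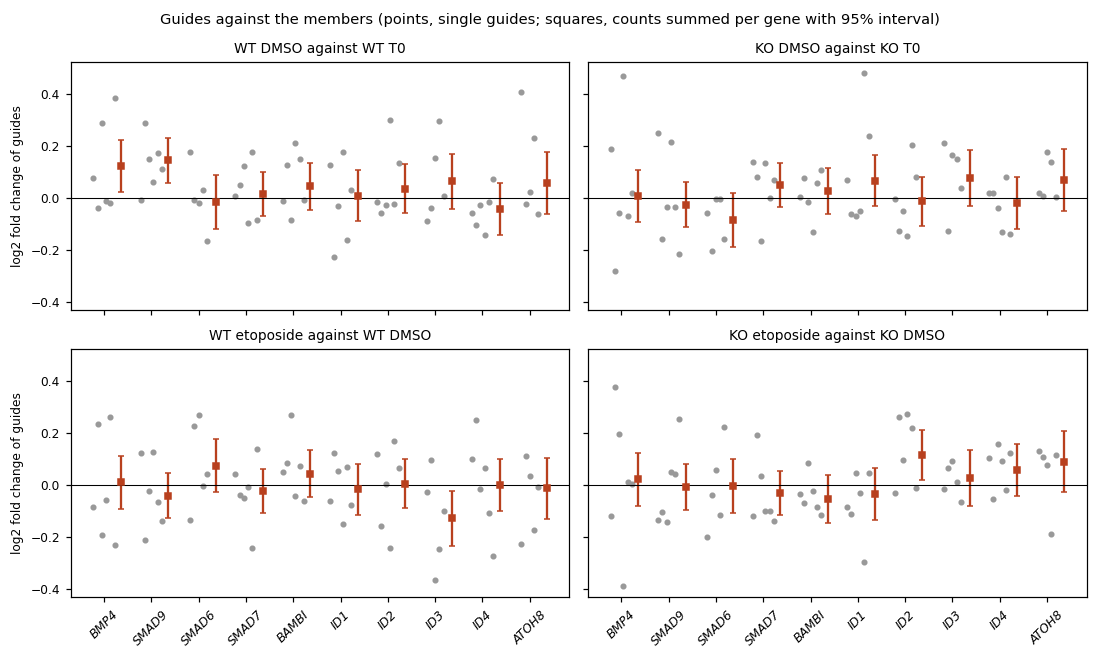
Log2 fold change of member guides (vertical axis) by gene (horizontal axis) in 4 screen comparisons; grey points are single guides and squares the counts summed per gene with their 95% interval. The intervals reach no further than -0.23 and 0.23, and SMAD9 in the growth of p53 WT cells (0.15) is the one that passed the threshold.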

How the data were processed

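The authors deposited raw counts per gene symbol for 10 RNA libraries and raw counts per guide for 18 screen libraries, with a length per gene in the RNA table. They also deposited a table that, by its values, compares the etoposide media, with a mean signal of scaled counts, log2 fold changes, a test score and p-values; only its log2 fold changes are quoted. Bowtie2, DESeq2 and the build hg19 are named, per the submitters' processing notes, with no version or role; for the RNA counts the aligner was not given in the sources used here, nor was any use of strand. Reads of overlapping or antisense genes cannot then be told apart.

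Counts were tested with edgeR 4.0.16 (R 4.3.3): filterByExpr, TMM scaling, quasi-likelihood F test, all libraries of an experiment in 1 fit, Benjamini-Hochberg adjustment over all genes, threshold 0.05. Guide counts were summed per gene over at least 3 guides, which left out 6 genes; 999 guides are non-targeting. CPM are TMM-scaled, and RPKM divide them by the deposited length. Among RNA symbols, 51 had been turned into amounts or dates and were not used by name. Columns of samples outside the labels numbered 0. Correlations used log2 of CPM plus 0.1. The scripts were tested on simulated data.

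The members and the lists of pathway genes were chosen with earlier results of these data known. Some named genes are not reported here. Named were all members, the 3 genes of smallest p of each list in each RNA comparison, the called screen genes of each list and the 6 genes most like ID1, ID2 and ID3; CDKN1A, MDM2 and the promoter motifs were added after the data were seen. Alternatives were DESeq2 1.42.0, its size factors, no filter, a replicate block, only the libraries compared and each library left out; for the screen also scaling to non-targeting guides and limma 3.58.1 on the mean over guides.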

Additional observations from a re-analysis of the deposited data

Results flagged for a closer look

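For 2 other genes of the pathway lists, TGFB2 and RGMB, the effect of etoposide in the donors differed between the donors' genotypes by a test of the difference itself. They are given because they passed, from lists chosen with earlier results of these data known, so their p-values are descriptive. TGFB2, a TGF-beta ligand, fell by 1.23 ± 0.11 with WT and by 1.94 ± 0.11 with KO donors, a difference of -0.70 ± 0.16 (adjusted p = 0.0251 by edgeR). RGMB, a BMP co-receptor, rose by 0.35 ± 0.10 and 0.93 ± 0.10, a difference of 0.58 ± 0.14 (adjusted p = 0.0414 by edgeR). With libraries left out in turn the difference ran from -0.92 (without replicate B of the KO-DMSO medium) to -0.46 (without its replicate A) for TGFB2 and from 0.39 (without that replicate A) to 0.79 (without that replicate B) for RGMB. Both calls were lost without any 1 library of the other 3 media and with only the libraries compared. The log2 fold change of SMAD6 for etoposide in the donors was -1.21 ± 0.13 with WT donors and -2.30 ± 0.16 with KO donors, a difference of -1.08 ± 0.21. It is given as a description, since SMAD6 was chosen on these values, and it was no longer called without replicate A or B of the WT-DMSO, replicate B of the WT-etoposide or replicate A of the KO-etoposide medium.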

How the results depend on the processing

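Among counts of members called in RNA, the KO against WT DMSO comparison gave 2 in place of 0 with no filter, and the difference between genotypes gave 2 in place of 1 with no filter, with the replicate block and by DESeq2. With each library left out, the counts ran from 2 to 4 (KO against WT etoposide medium, 6 in all), 0 to 3 (KO against WT DMSO) and 0 to 2 (the difference). In the screen the count for growth of p53 WT cells was 0 with non-targeting scaling and with limma, and 0 to 1 with each library left out. The other alternatives moved no count of members by over 1.5 times; the cause was not tested.

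Same-letter deviations correlated between -0.037 and 0.103 in RNA (2 of 20 pairs over 0.1) and between -0.046 and 0.172 in the screen (4 of 45). With 2 RNA libraries a group, replicates A and B deviate in mirror image, so these 2 RNA pairs hold the same value. All 4 screen pairs were within p53 KO cells. They were 0.104, 0.106 and 0.101 among the A libraries and 0.172 for replicate C of T0 and DMSO. Whether a letter marks libraries handled together was not tested. The replicate block is given here only. Beside the count above, it dropped ID2 from the members called in WT-DMSO medium against T0 and added SMAD9 for KO-DMSO medium.

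Counts over all genes moved most for KO against WT DMSO medium, from 240 to 1186 (no filter), 388 (replicate block), 381 (DESeq2) and 2 (only the libraries compared). The difference between genotypes went from 326 to 791 (no filter) and 114 (only the libraries compared). With non-targeting scaling the screen counts were 3055 in place of 1244 (WT growth), 1583 in place of 668 (KO growth), 991 in place of 419 (WT etoposide), 19 in place of 10 (etoposide difference) and 10 in place of 1 (growth difference). KO etoposide gave 500 in place of 806 with only the libraries compared. The etoposide difference gave 17 (replicate block), 99 (DESeq2) and 6 (only the libraries compared), and the growth difference 2 (replicate block), 30 (DESeq2) and 6 (limma).

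Among the values checked, signs turned only in ones that had not passed, and those listed here belong to other pathway genes. For most member values that had not passed, turns of sign were not counted. TCF3 between the etoposide media was 0.0043 with no filter, and with each library left out it ran from -0.0845 to 0.0721. TCF3 ran from -0.0015 to 0.151 between the DMSO media, and its difference between genotypes from -0.147 to 0.0166, in each case with 1 library left out. TCF12 between the etoposide media ran from -0.0302 to 0.318, and BMP5 between the DMSO media from -0.233 to 0.0126, likewise.

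With 2 libraries a group, 1 library decides many RNA calls. ATOH8 has 5 to 103 counts a library, which limits its precision most. Intervals cover counting error and the spread between these libraries.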
